A study of Mus musculus with 8 samples.

Results

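The genes examined were axon growth inhibitors and the receptors that read them: Rtn4, Mag, Omg, Tnr and Wfdc1 on the side of the inhibitors, and Rtn4r, Rtn4rl1, Lingo1, Lingo3 and Ptprs on the side of the receptors. Open chromatin was followed at these 10 genes in retinal ganglion cells (RGCs), the neurons whose axons form the optic nerve. A peak of any of the 8 lists counted when it overlapped a gene or the 10 kb on either side of it, and overlapping peaks (1 bp or more) were joined into regions. This rule gave 192 of 189914 regions. It used gene names and positions only, not the heights of peaks.

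All mice were adult C57BL/6J, and all received AAV2 in the vitreous body, an optic nerve crush (ONC) 2 weeks later and RGC sorting 3 days after ONC. The virus carried Ezh2, a histone methyltransferase (3 samples), its catalytically inactive mutant Ezh2-Y726D (2 samples) or, in the control, GFP (3 samples). Each library was made from 50000 cells by ATAC-seq, in which a transposase cuts into open DNA. AAV2 also enters retinal cells other than RGCs, the sort took every living cell positive for CD90.2 (Thy1), and the number of mice per library was not given in the sources used here.

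Rtn4 encodes Nogo, and Mag and Omg encode further proteins of the myelin membrane that stop growing axons. All of these bind the Nogo receptor encoded by Rtn4r, a protein held to the neuronal surface by a lipid anchor, which signals through partners such as Lingo1 to RhoA and the actin skeleton. Tnr (tenascin-R) belongs to the matrix of perineuronal nets, and chondroitin sulfate proteoglycans of that matrix act on the receptor phosphatase encoded by Ptprs and on the Nogo receptor homologue encoded by Rtn4rl1. Lingo3 is a close relative of Lingo1 with leucine-rich repeats and an immunoglobulin domain, and Wfdc1 encodes a secreted protein with a WAP domain.

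The sequence before the start of 4 of these genes is shown, because the starts differed sharply both in CG dinucleotides and in accessibility. Each run is the 250 bases upstream of the outermost start, 5′ to 3′ on the strand of the gene, with every CG in capitals, from RefSeq on GRCm38.p6. Rtn4r (chr16:18127392-18127641, plus strand) and Lingo3 (chr10:80844040-80844289, minus strand) had many CG, and Tnr (chr1:159523519-159523768, plus strand) and Mag (chr7:30914923-30915172, minus strand) had few.
Rtn4r: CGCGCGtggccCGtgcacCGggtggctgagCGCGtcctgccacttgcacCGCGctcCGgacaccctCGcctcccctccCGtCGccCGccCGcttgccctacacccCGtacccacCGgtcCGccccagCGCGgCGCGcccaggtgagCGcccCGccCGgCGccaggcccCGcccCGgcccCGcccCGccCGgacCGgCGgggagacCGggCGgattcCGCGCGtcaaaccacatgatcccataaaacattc
Lingo3: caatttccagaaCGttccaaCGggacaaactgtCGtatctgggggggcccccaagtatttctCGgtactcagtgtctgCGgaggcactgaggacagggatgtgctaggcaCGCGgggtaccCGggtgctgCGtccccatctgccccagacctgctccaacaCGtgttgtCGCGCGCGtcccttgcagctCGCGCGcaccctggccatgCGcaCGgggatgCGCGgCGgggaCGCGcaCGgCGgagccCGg
Tnr: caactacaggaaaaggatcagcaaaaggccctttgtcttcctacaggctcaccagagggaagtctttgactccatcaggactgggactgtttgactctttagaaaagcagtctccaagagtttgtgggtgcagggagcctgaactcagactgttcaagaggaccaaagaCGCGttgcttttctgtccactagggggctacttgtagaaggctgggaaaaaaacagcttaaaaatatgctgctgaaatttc
Mag: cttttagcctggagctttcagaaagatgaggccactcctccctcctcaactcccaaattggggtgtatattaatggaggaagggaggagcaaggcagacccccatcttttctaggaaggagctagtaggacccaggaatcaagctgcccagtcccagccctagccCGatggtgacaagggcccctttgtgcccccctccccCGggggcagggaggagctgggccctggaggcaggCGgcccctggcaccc

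Rtn4r had 38 CG in this stretch, more than 98.1% of 32851 mouse promoters, and Lingo3 had 27. Tnr had 2 and Mag had 3, against a median of 6 per promoter. In all, 14 starts of 7 member genes had a sequence, and Wfdc1, Omg and Rtn4rl1 had none. The 3 starts of Mag were the starts without a peak in any list; the other 11 had a peak over the start in all 8 lists. None of the 14 stretches held TATAAA on either strand, a string found in 12.4% of all promoters. GGGCGG on either strand was in 7 of the 14 and in 32.7% of all promoters, and of the stretches printed it was in that of Rtn4r. These strings are matches of letters and were not tested as binding sites.

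The lists held 112939 to 135895 peaks, depth is unknown because no read numbers are in them, and the labels gave no batch. Within Ezh2 itself (chromosome 6, 47530274 to 47595270), 13 regions were merged, of which 3, 5 and 6 had a peak in the GFP lists, 8, 10 and 9 in the Ezh2 lists and 4 in each Ezh2-Y726D list. RGC markers had a peak within 1 kb of a start or end for 18 or 19 of 20 genes in every list. Of the 17 RGC markers tested, limma called 1, the transcription factor gene Pou4f1. It was lower in Ezh2-Y726D than in GFP (-0.85 in normal scores of the rank by fold within a list, adjusted p = 0.0267). It was also higher in Ezh2 than in Ezh2-Y726D (1.29, adjusted p = 0.00305). Of all regions tested, 4.65% and 7.0% were called in these directions, so 1 call among 17 genes was near the background. The Ezh2-Y726D lists stood apart in immune genes. Of 20 T cell markers, 16 to 19 had a peak in GFP and 19 or 20 in Ezh2, but 5 or 6 in Ezh2-Y726D, and summed folds were 86.3 to 103, 99.7 to 120 and 26.8 to 35. Of 20 microglia and macrophage markers, 12 to 16 had a peak in GFP, 14 to 16 in Ezh2 and 5 in both Ezh2-Y726D lists, with summed folds of 68.6 to 85.6, 81.8 to 91.8 and 42.9 to 47.2. The T cell genes Cd3e and Cd8a and the microglial Cx3cr1 had peaks in all GFP and Ezh2 lists but no Ezh2-Y726D list. Not all microglial genes went that way. P2ry12 had a peak in all GFP and both Ezh2-Y726D lists and in no Ezh2 list. C1qc, 1 of 3 genes of that list tested, was lower in Ezh2 than in Ezh2-Y726D (-1.03, limma adjusted p = 0.0344), as were 6.96% of all regions. Oligodendrocyte markers had a peak for 11 of 15 genes in every list, with none at Mog, Mobp, Olig2 or Opalin in any. Their summed folds, which are not ranks and can differ with depth, were 77.9 to 79.3 in Ezh2-Y726D, 69.7 to 74.8 in GFP and 69.7 to 72.2 in Ezh2. By rank, limma called Ermn, 1 of 11 tested, higher in Ezh2 than in GFP (1.08, adjusted p = 0.0203), against 1.59% of all regions. Cnp and Ermn were called higher in Ezh2 than in Ezh2-Y726D (0.98 and 0.81, limma adjusted p = 0.0273 and 0.0401), against 7.0% of all regions. Muller glia markers had a peak for 9 of 10 genes in every list. Of the 9 tested, 3 were higher in Ezh2 than in Ezh2-Y726D, against 7.0% of all regions. These were Glul, Slc1a3 and Kcnj10 (0.81, 1.09 and 0.80, limma adjusted p = 0.0367, 0.007 and 0.0216). Rod markers had a peak for 10 of 10 genes in GFP, 7 to 9 in Ezh2 and 8 or 10 in Ezh2-Y726D. The part of these other cells in the Ezh2-Y726D results was not tested.

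Of the 192 member regions, 116, 110 and 138 had a peak in the GFP lists, 131, 130 and 143 in the Ezh2 lists and 122 and 129 in the Ezh2-Y726D lists. Group means were 121 ± 14.7, 135 ± 7.23 and 126 ± 4.95 (SD, n = 3, 3 and 2). GFP overlapped with both other groups, while every Ezh2 value lay above both Ezh2-Y726D values, by as little as 130 against 129. The share of regions with a peak ran from 57.3% to 74.5% for members and from 56.8% to 69.0% for all regions. A peak in all 8 lists was found for 84 member regions (43.8%), against 36.6% of all regions. Height is given here as a percentile, the rank of a peak by its fold over the local background within its own list, so that 100 is the highest peak of that list. The median percentile was 49.9 to 57.0 for the 84 member regions in the 8 lists and 66.7 to 71.8 for all regions shared by all lists.

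**Figure D1:**
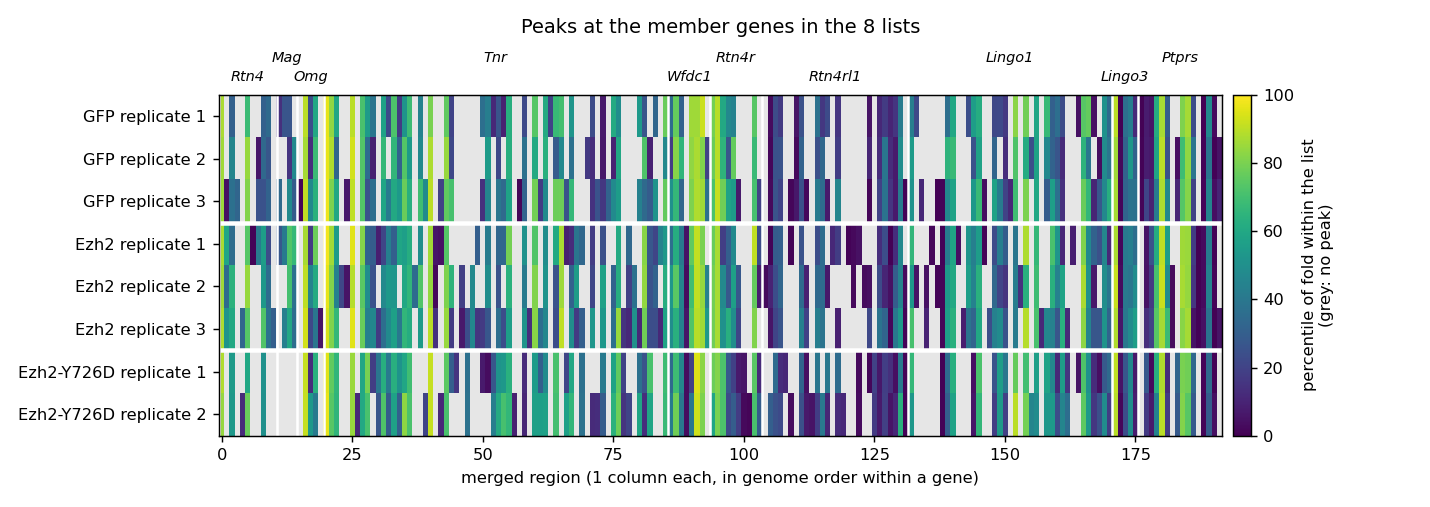
Percentile of fold within each list (color) for all 192 member regions, 1 column per region in genome order within a gene and 1 row per list, with grey where a list has no peak. Mag has no peak in either Ezh2-Y726D row, and columns with a peak in all 8 rows make up 84 of the 192.

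Ezh2 was first compared with GFP, to ask whether added Ezh2 changed accessibility at these genes. Few regions moved, and their shares were close to those over all regions. By limma on ranks, 2 of 84 regions were higher and 2 were lower in Ezh2 (2.38% each), against 1.59% and 2.84% of all 69493 regions tested. The 2 higher regions lay inside Rtn4 and Tnr and the 2 lower ones inside Lingo1 and Rtn4rl1. A region was called gained when every list of the first group and no list of the other had a peak, and lost in the reverse case. Of 183 member regions with a peak in either group, 5 were gained (2.73%) and 2 lost (1.09%), against 3.01% and 1.85% of all regions. The median difference, in normal-score units of rank, was 0.03 over the 84 member regions and 0.01 over all regions.

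Ezh2-Y726D was compared with GFP in the same way. Here 2 of 84 member regions were higher and 2 lower, again 2.38% each, against 3.55% and 4.65% of all regions. The higher regions both lay inside Tnr, and the lower ones inside Lingo1 and Wfdc1. Presence changed in more regions, with 9 of 164 gained (5.49%) and 6 lost (3.66%), against 5.36% and 5.32% of all regions. The median difference was -0.04 over member regions and -0.01 over all. Both comparisons share the same GFP samples.

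The largest number of calls came from Ezh2 against Ezh2-Y726D, which sets the active enzyme against the inactive one. Of 84 regions, 9 were higher in Ezh2 (10.7%) and 5 lower (5.95%), against 7.0% and 6.96% of all regions. Tnr held 7 of these 14 calls (of its 23 regions tested), Lingo1 and Ptprs 2 each (of 17 and 11), and Lingo3, Rtn4r and Wfdc1 1 each (of 5, 6 and 6). Gained were 11 of 182 regions (6.04%) and lost were 4 (2.20%), against 9.38% and 6.43% of all. The median difference was 0.11 over member regions and 0.02 over all. Calls by limma rested on both Ezh2-Y726D samples, for without replicate 1 a single region was called higher and a single one lower, and without replicate 2 the counts were 2 and 1.

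**Figure D2:**
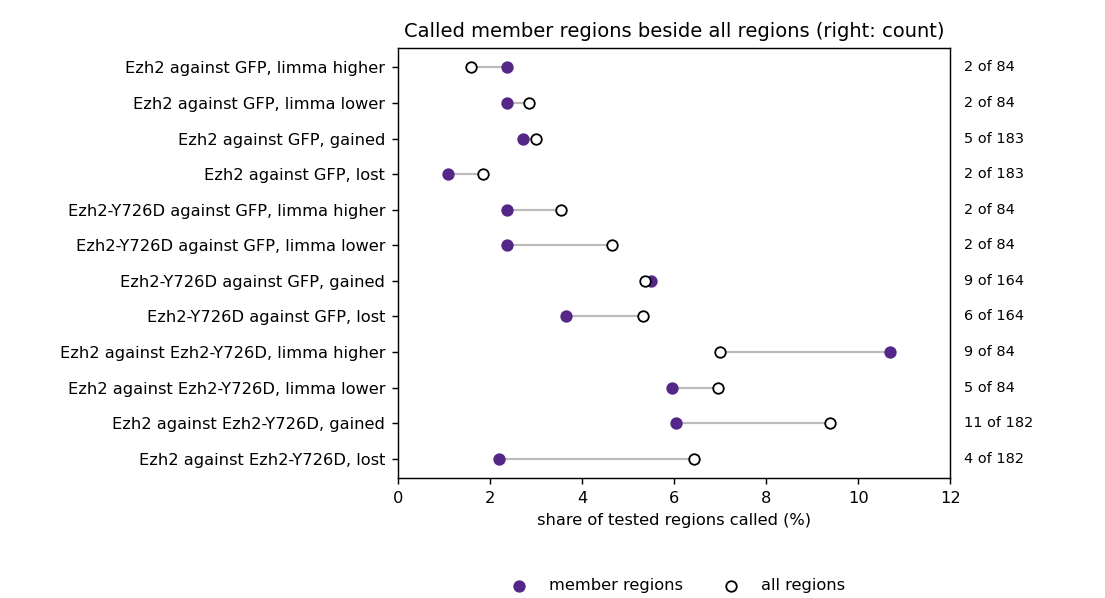
Share of tested member regions (filled) and of all tested regions (open) called in each comparison, by limma at an adjusted p under 0.05 or by gain or loss of a peak, in percent, with the count of member regions at the right. The largest gaps are 10.7% of member regions against 7.0% (higher in Ezh2 than in Ezh2-Y726D) and 2.20% against 6.43% (lost in the same comparison).

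Among the inhibitors, Rtn4 (chromosome 11, 29692898 to 29744414, gene ID 68585) had an open start whose values overlapped between groups. Its outer region (29692259 to 29694407), which covers 2 annotated starts, reached percentiles of 87.4, 85.9 and 85.4 in GFP, 87.2, 85.6 and 87.5 in Ezh2, with 88.2 and 84.3 in Ezh2-Y726D. The 3 groups overlapped fully, and the difference between Ezh2 and GFP was 0.01 normal-score units (95% interval -0.34 to 0.35, limma adjusted p = 0.987). An inner start (29718299 to 29719362) lay in the same range in GFP and Ezh2, at 68.2, 84.7 and 81.5 and at 73.8, 84.5 and 73.5, with 59.7 and 77.2 in Ezh2-Y726D.

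Inside Rtn4, 3 weaker regions did differ. The region at 29731112 to 29731575, 12549 bp from a start, stood at percentiles of 31.0, 33.6 and 25.0 in GFP and 55.6, 53.4 and 72.7 in Ezh2, with 50.7 and 50.3 in Ezh2-Y726D. Every Ezh2 value exceeded every GFP value (difference 0.88 ± 0.21 SE, limma adjusted p = 0.0434). This call was made again in 2 of 14 alternatives, with adjusted p from 0.0274 to 0.162. A peak at 29735062 to 29735808 was found in all GFP lists (34.7, 26.7 and 31.9), all Ezh2 lists (23.3, 35.3 and 37.6) and no Ezh2-Y726D list. At 29705191 to 29705592 the Ezh2 lists had peaks at 59.2, 34.8 and 51.7, GFP replicate 3 had one at 3.92, and the other lists had none. Peaks covered 7.49%, 7.10% and 8.04% of the Rtn4 window in Ezh2, with 5.18% and 6.06% in Ezh2-Y726D, without overlap, as in 35.5% of the windows of protein-coding genes.

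Mag (chromosome 7, 30899175 to 30914922, gene ID 17136), which encodes the myelin-associated glycoprotein, differed from the rest in that no region was shared by all lists. It had 4 regions, of which the GFP lists had 3, 2 and 3, the Ezh2 lists 4, 2 and 3, and the Ezh2-Y726D lists none. The strongest (30909472 to 30910382, inside the gene and 3939 bp from a start) stood at 26.5, 15.0 and 48.0 in GFP and 72.9, 70.4 and 60.1 in Ezh2. The Ezh2 values thus lay above all GFP values, but limma was run only on regions present in all lists, so this difference has no test. A region 7750 bp above the gene (30922672 to 30923262), which overlaps Hamp2, was present in the Ezh2 lists at 67.1, 37.2 and 36.1 and in GFP replicates 2 and 3 at 46.7 and 29.0. The remaining pair (30904121 to 30904387 and 30908842 to 30909318) had a peak in 2 of 3 GFP lists or fewer and reached at most 43.1.

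Peaks covered 2.24%, 1.91% and 2.91% of the Mag window in GFP and 5.37%, 2.78% and 4.64% in Ezh2, against 0 in both Ezh2-Y726D lists. Of 17599 protein-coding genes with peaks in all GFP and Ezh2 lists, 133 (0.756%) had none in Ezh2-Y726D. This share was not matched for the number of peaks in a window, which was small at Mag. The reverse, peaks in both Ezh2-Y726D lists only, was found at 51 of 17901 windows (0.285%). Fewer T cell and microglial markers had a peak in Ezh2-Y726D, as given above, though some, such as P2ry12 and C1qc, had one in both lists. Of 15 markers of oligodendrocytes, the cells known to make Mag, the same 11 had a peak in every list. Mog, Mobp, Olig2 and Opalin had none in any list, so this count cannot show whether the share of these cells differed. By rank, limma called 2 of the 11 tested, Cnp and Ermn, higher in Ezh2 than in Ezh2-Y726D (0.98 and 0.81), and 0 lower. Of all regions, 7.0% were called higher and 6.96% lower in that comparison. Whether other sorted cells contributed the Mag peaks was not tested.

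Omg (chromosome 11, 79500982 to 79504082, gene ID 18377), the oligodendrocyte myelin glycoprotein, lies inside Nf1, so its peaks cannot be assigned to one of the 2 genes. The region at its higher-coordinate end (79503817 to 79504380) varied within groups, with percentiles of 60.0, 68.2 and 63.8 in GFP, 77.5, 61.2 and 39.0 in Ezh2, with 63.6 and 41.0 in Ezh2-Y726D. No difference exceeded that spread (Ezh2 against GFP -0.15, 95% interval -0.85 to 0.55, limma adjusted p = 0.849). The strongest region of the window, 5161 bp below Omg in Nf1 (79494845 to 79495821), stood at 86.5 to 93.0 in all lists. No Omg region was gained, lost or called by limma in any comparison, and none of the 3 tested had an unadjusted p under 0.05.

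Tnr (chromosome 1, 159523729 to 159931729, gene ID 21960) was the longest member, with 66 regions, of which 33 to 45 had a peak in the GFP lists, 42 to 51 in the Ezh2 lists and 41 and 43 in the Ezh2-Y726D lists. Its start region (159523536 to 159524713), over the CG-poor sequence shown above, was open at 83.5, 88.0 and 80.3 in GFP, 86.2, 81.4 and 81.0 in Ezh2, with 75.8 and 74.1 in Ezh2-Y726D. Both Ezh2-Y726D values lay below all others, but the difference from GFP (-0.44, 95% interval -0.89 to 0.01) did not pass the test (limma adjusted p = 0.216). A region 5438 bp below the gene (159517143 to 159518291) was higher still, at 94.1 to 98.3 in all lists.

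Within the body of Tnr, calls went in both directions. Most different was the region at 159910902 to 159911486, near the far end of the gene. It stood at 26.5, 72.3 and 34.4 in GFP, at 82.1, 83.7 and 78.4 in Ezh2 and at 25.7 and 13.2 in Ezh2-Y726D. All Ezh2 values were above all others (Ezh2 against Ezh2-Y726D 1.95 ± 0.38 SE, limma adjusted p = 0.00914), while against GFP, where replicate 2 was close to Ezh2, the test was not passed (1.21, adjusted p = 0.0747). The call was lost without Ezh2-Y726D replicate 2 (highest adjusted p of its alternatives 0.0815, lowest 0.00175). At 159766736 to 159767871 the Ezh2 values (50.6, 40.8 and 51.9) were also above GFP (22.1, 37.4 and 32.0) and Ezh2-Y726D (12.2 and 10.9), by 1.04 over Ezh2-Y726D (limma adjusted p = 0.00976, 0.00352 to 0.0781 over its alternatives).

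The opposite order held at 159583755 to 159584328, where the Ezh2 lists gave 21.0, 47.2 and 36.1, below 57.5, 66.7 and 58.7 in GFP and 62.7 and 72.4 in Ezh2-Y726D. Against Ezh2-Y726D the difference was -0.97 ± 0.24 SE (limma adjusted p = 0.025, 0.0187 to 0.151 over its alternatives), and against GFP -0.80 (adjusted p = 0.066). At 159561379 to 159562016 the 2 Ezh2-Y726D values (79.3 and 71.3) exceeded GFP (54.7, 35.3 and 25.2) and Ezh2 (31.5, 48.5 and 43.3). Ezh2-Y726D was 1.13 ± 0.28 SE above GFP there (limma adjusted p = 0.0384, 0.0243 to 0.216 over its alternatives).
At 159747956 to 159748728 Ezh2-Y726D was likewise highest (51.4 and 61.1, against 26.5, 21.7 and 39.4 in GFP), by 0.75 ± 0.19 SE over GFP (adjusted p = 0.0382, 0.0119 to 0.194 over its alternatives). The 1 Tnr region that limma placed higher in Ezh2 than in GFP was at 159853844 to 159854525, with 24.7, 57.1 and 52.9 in Ezh2 and 6.71, 6.42 and 16.1 in GFP. Its difference was 1.12 ± 0.23 SE (adjusted p = 0.0298, 0.0212 to 0.0982 over its alternatives). The Ezh2-Y726D values, 41.2 and 29.2, lay above GFP and within the range of Ezh2.

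Some Tnr regions were present in only some groups. The region at 159812582 to 159813425 had strong peaks in Ezh2 (87.2, 85.5 and 90.4), weaker ones in GFP (70.1, 46.7 and 78.1) and none in Ezh2-Y726D. A second region without an Ezh2-Y726D peak, at 159635300 to 159635918, stood at 44.3, 46.7 and 69.5 in GFP and 49.2, 72.8 and 54.5 in Ezh2. Peaks in every Ezh2 list and no GFP list were found at 159828495 to 159828842 (39.2, 55.5 and 17.5), 159889425 to 159889772 (33.5, 18.8 and 11.6) and 159674184 to 159674473 (6.18, 1.97 and 14.3). The second of these also had a peak in Ezh2-Y726D replicate 2 (20.6), the others in neither Ezh2-Y726D list. Against GFP, Ezh2-Y726D gained 4 Tnr regions, of which the strongest 2, at 159718014 to 159718346 and 159840269 to 159840705, both stood at 37.0 and 37.8 and also had a peak in 1 or 2 Ezh2 lists. At 159922972 to 159923529 all Ezh2 lists (21.0, 31.3 and 23.8) and GFP replicates 1 and 3 (33.0 and 51.9) had a peak, and the Ezh2-Y726D lists had none.

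Wfdc1 (chromosome 8, 119666365 to 119688020, gene ID 67866) held the member region with the lowest adjusted p. The region at 119675353 to 119676165, inside the gene, was high in GFP (85.7, 83.4 and 80.5), lower in Ezh2 (75.5, 69.4 and 72.7) and low in Ezh2-Y726D (19.6 and 39.5). Its folds over background were 8.03, 8.27 and 7.35, then 6.95, 6.14 and 6.12, then 3.73 and 4.41. The groups did not overlap. Ezh2-Y726D was lower than GFP by -1.76 ± 0.21 SE (limma adjusted p = 0.00261, 0.00202 to 0.0313 over 13 alternatives, all called) and Ezh2 was higher than Ezh2-Y726D by 1.29 ± 0.21 SE (adjusted p = 0.00406, lost without Ezh2-Y726D replicate 1 at 0.0515). Ezh2 against GFP (-0.47, 95% interval -0.88 to -0.06) did not pass after adjustment (adjusted p = 0.191).

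The neighbouring Wfdc1 region, which begins at 119676283 and ends at 119677008, went the other way in order. It stood at 85.9, 87.2 and 87.9 in GFP, 91.0, 90.4 and 89.1 in Ezh2, with 94.8 and 92.9 in Ezh2-Y726D, yet no difference passed the test (Ezh2-Y726D against GFP 0.45, 95% interval 0.08 to 0.83, limma adjusted p = 0.132). The lower-coordinate end of Wfdc1 (119666088 to 119666927), which also overlaps Gm32352, ranged from 31.2 to 65.3 in GFP, from 41.0 to 45.3 in Ezh2 and from 40.2 to 46.0 in Ezh2-Y726D. A weak region at 119670708 to 119671141 had a peak in all Ezh2 (5.00, 2.97 and 5.67) and both Ezh2-Y726D lists (3.37 each) and in no GFP list.

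**Figure D3:**
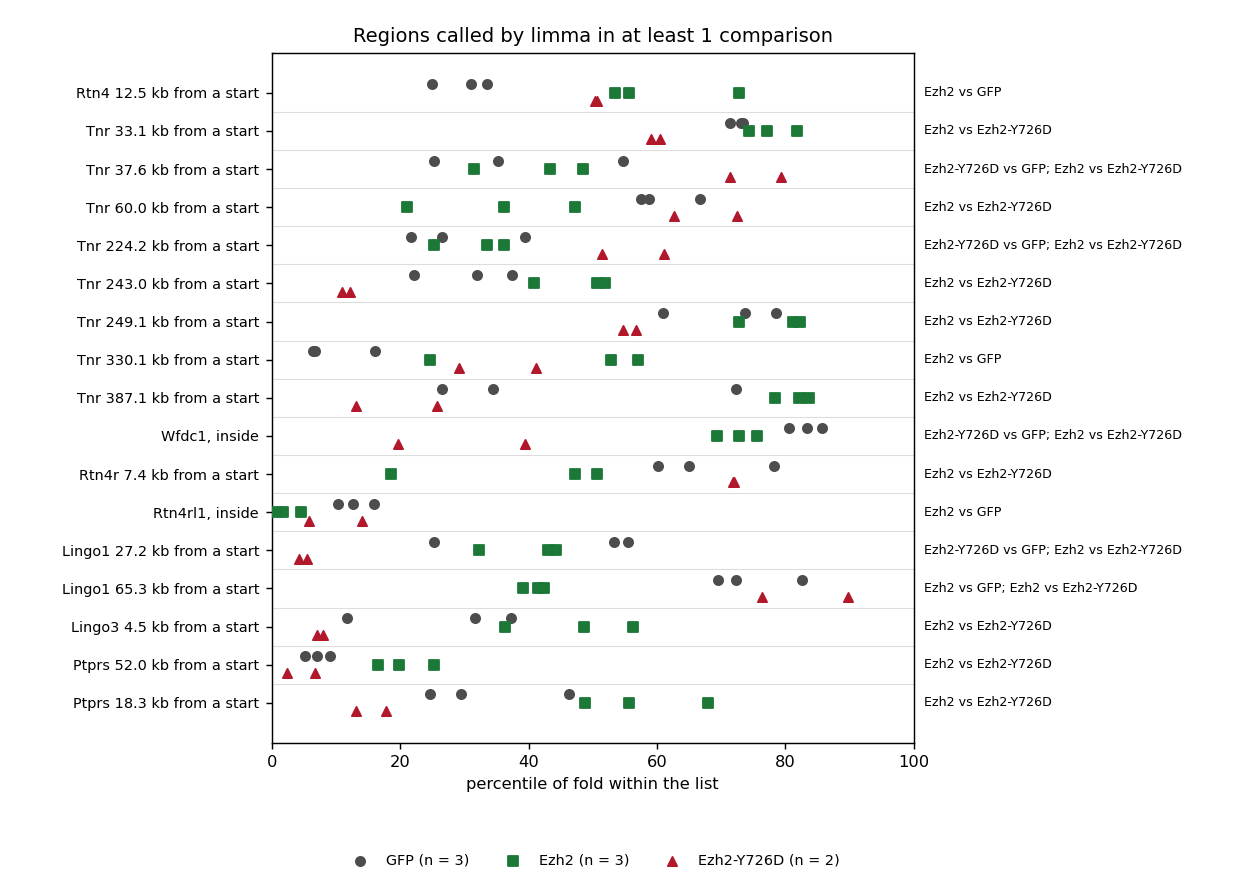
Percentile of fold within the list (x axis) for each member region called by limma in at least 1 comparison (y axis, with distance to the nearest annotated start where 1 is given), 1 point per list, with the comparisons that called it at the right. Wfdc1 separates Ezh2-Y726D (19.6 and 39.5) from GFP (80.5 to 85.7), and the Lingo1 region 65319 bp from a start separates Ezh2 (39.2 to 42.4) from the other groups (69.5 to 89.8).

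On the side of the receptors, Rtn4r (chromosome 16, 18127642 to 18152408, gene ID 65079) had the highest start region in GFP, over the CG-rich sequence shown above. The region (18127041 to 18128451, shared with Gm52241) stood at 89.2, 89.1 and 91.4 in GFP, 86.8, 86.9 and 87.0 in Ezh2, with 81.6 and 79.9 in Ezh2-Y726D. The 3 groups did not overlap and stepped down in that order. Even so, Ezh2-Y726D against GFP was -0.53 (95% interval -0.89 to -0.17), which did not pass over all regions (limma adjusted p = 0.0722), and Ezh2 against GFP was -0.21 (-0.53 to 0.11, adjusted p = 0.481).

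Inside Rtn4r, the region at 18135048 to 18135819 was lowest with Ezh2, at 18.6, 47.2 and 50.6, against 60.2, 65.0 and 78.2 in GFP and 72.0 and 71.9 in Ezh2-Y726D. Ezh2 was lower than Ezh2-Y726D by -1.01 ± 0.26 SE (limma adjusted p = 0.0311), a call lost without Ezh2 replicate 1 and without either Ezh2-Y726D sample (up to 0.138), and it missed the threshold against GFP (-0.94, adjusted p = 0.0534). A weak region at 18148218 to 18148577 had a peak in the Ezh2-Y726D lists alone (5.85 and 2.73). Peaks covered 9.93% and 10.6% of the Rtn4r window in Ezh2-Y726D, above 7.67% to 9.10% in GFP and 8.04% to 9.42% in Ezh2. Such a gap above GFP was found in 14.7% of gene windows, and one above Ezh2 in 14.6%.

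Rtn4rl1 (chromosome 11, 75193993 to 75267769, gene ID 237847) had 28 regions, nearly all weak. At its lower-coordinate end a broad region (75192841 to 75195759) stood at 17.1, 25.5 and 20.1 in GFP, 30.3, 33.1 and 26.5 in Ezh2, with 12.5 and 22.4 in Ezh2-Y726D. Ezh2 exceeded GFP in every list, by 0.23 (95% interval -0.16 to 0.63, limma adjusted p = 0.527). The strongest region lay 5419 bp above the gene, in Gm35117 (75273188 to 75274186), at 41.2 to 63.4.
In the body of Rtn4rl1, the region at 75263452 to 75264282 fell with Ezh2, from 10.3, 12.7 and 15.9 in GFP to 0.746, 4.59 and 1.71, with 14.0 and 5.85 in Ezh2-Y726D. The difference of -0.87 ± 0.21 SE sat at the threshold (limma adjusted p = 0.0497, 0.039 to 0.141 over its alternatives). A region at 75205367 to 75205882 had a peak in the GFP lists alone (5.56, 2.62 and 6.35), and one at 75253790 to 75254112 in the Ezh2-Y726D lists alone (19.7 and 17.2). At 75248799 to 75249390 both Ezh2-Y726D lists (2.51 and 2.99) and Ezh2 replicate 1 (4.59) had a peak.

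Lingo1 (chromosome 9, 56618460 to 56796310, gene ID 235402) had 39 regions and 2 annotated starts. The outer start region (56795679 to 56797200) stood at 51.0, 48.3 and 46.5 in GFP, 46.0, 49.5 and 51.8 in Ezh2, with 27.9 and 48.5 in Ezh2-Y726D. The inner one (56634874 to 56636765) stood at 36.6, 64.5 and 47.0, then 42.3, 53.6 and 55.8, then 34.8 and 30.2. Ezh2 and GFP overlapped at both (-0.01 and 0.00, limma adjusted p = 0.981 and 0.995). At the inner start both Ezh2-Y726D values lay below all others, without passing the test against GFP (-0.48, 95% interval -1.05 to 0.09, adjusted p = 0.286) or against Ezh2, which was higher by 0.48 (-0.09 to 1.05, adjusted p = 0.244). The strongest region, inside the gene at 56766495 to 56768333, was 81.1, 87.3 and 83.1 in Ezh2, above 64.6 to 77.0 in GFP and 72.6 and 75.0 in Ezh2-Y726D, by 0.47 over GFP (95% interval 0.10 to 0.84, adjusted p = 0.149).

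The clearest receptor region was inside Lingo1 at 56700967 to 56701971, 65319 bp from a start. It was high in GFP (82.5, 72.3 and 69.5) and Ezh2-Y726D (76.3 and 89.8) and low in Ezh2 (39.2, 42.4 and 41.5), with folds of 6.12 to 7.54, 7.38 and 9.47, and 4.14 to 4.40. No Ezh2 value came near those of the other groups. Ezh2 was lower than GFP by -1.11 ± 0.22 SE (limma adjusted p = 0.0258, 0.0174 to 0.0732 over 13 alternatives, of which 7 made the call) and lower than Ezh2-Y726D by -1.45 ± 0.25 SE (adjusted p = 0.00528, 0.00366 to 0.0483, called in all 13). Ezh2-Y726D and GFP overlapped (0.34, adjusted p = 0.441).

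A second Lingo1 region, at 56662841 to 56663729 and shared with Gm31642, was low in Ezh2-Y726D instead. Its percentiles were 55.5, 25.2 and 53.3 in GFP, 43.0, 44.2 and 32.3 in Ezh2, with 4.20 and 5.48 in Ezh2-Y726D. Ezh2-Y726D fell below GFP (-1.36 ± 0.25 SE, limma adjusted p = 0.0128) and below Ezh2, which was higher by 1.19 ± 0.25 SE (adjusted p = 0.0134), and both calls were lost without either Ezh2-Y726D sample (0.0885 and 0.0906 at the highest). At 56654861 to 56655754 all Ezh2 lists (52.3, 56.5 and 38.2) and GFP replicate 1 (24.1) had a peak, and Ezh2-Y726D had none. At 56753511 to 56753844 both Ezh2-Y726D lists (15.6 and 35.9) and Ezh2 replicate 3 (11.6) had one, and GFP had none.

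Lingo3 (chromosome 10, 80832801 to 80844039, gene ID 237403) had 5 regions, all present in all 8 lists, and the highest covered share of any member window, 14.9% to 16.8%. Its start region (80843259 to 80844623), which covers both annotated starts, stood at 42.3, 53.1 and 37.9 in GFP, 43.1, 39.3 and 48.1 in Ezh2, with 46.1 and 49.2 in Ezh2-Y726D. The groups overlapped, with Ezh2 against GFP at -0.06 (95% interval -0.48 to 0.37, limma adjusted p = 0.915). The many CG in the sequence above thus stood beside a middling rank at the start.
The region that differed lay 4457 bp upstream (80848496 to 80849081), at 11.8, 31.7 and 37.2 in GFP, 36.3, 48.6 and 56.2 in Ezh2, with 7.04 and 8.05 in Ezh2-Y726D. Ezh2 exceeded Ezh2-Y726D by 1.21 ± 0.24 SE (limma adjusted p = 0.00965, lost without either Ezh2-Y726D sample, up to 0.0714), while against GFP it did not pass (0.56, adjusted p = 0.17). The strongest region of the window, over Oaz1 (80825995 to 80827191), held 85.9 to 91.5 in all lists.

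Ptprs (chromosome 17, 56412426 to 56476561, gene ID 19280) was more open at its inner start than at its outer one. The inner region (56461679 to 56463186) stood at 86.4, 83.5 and 82.0 in GFP, 84.9, 84.1 and 86.5 in Ezh2, with 78.2 and 73.9 in Ezh2-Y726D, and the outer region (56474533 to 56476788, shared with Gm32822 and Gm9258) at 47.8, 38.7 and 45.7, then 41.9, 44.5 and 38.1, then 34.4 and 29.1. In both, Ezh2-Y726D lay below every other list, without passing the test against GFP (-0.39 and -0.35, limma adjusted p = 0.208 and 0.283). The strongest region, inside the gene at 56424762 to 56426209, held 86.7 to 91.8 in all lists.

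Another Ptprs region, at 56442291 to 56443880, separated all 3 groups. It was 55.7, 48.8 and 68.0 in Ezh2, 29.5, 24.7 and 46.3 in GFP and 13.2 and 17.8 in Ezh2-Y726D. Ezh2 was above Ezh2-Y726D by 1.19 ± 0.21 SE (limma adjusted p = 0.00647, lost only without Ezh2-Y726D replicate 1, at 0.063), and its difference from GFP of 0.68 did not pass (adjusted p = 0.0752). A weak region 2189 bp below the gene (56409006 to 56410237) had the same order of means, with 25.3, 16.6 and 19.9 in Ezh2, 5.11, 6.98 and 9.12 in GFP and 2.37 and 6.70 in Ezh2-Y726D (0.74 ± 0.19 SE over Ezh2-Y726D, adjusted p = 0.0314, 0.0369 to 0.255 over its alternatives).
Presence at Ptprs changed only in weak peaks: at 56406385 to 56406840 in GFP alone (0.587, 0.993 and 1.31), at 56468844 to 56469198 in Ezh2 alone (0.413, 0.588 and 0.998), and at 56447737 to 56448233 in Ezh2-Y726D (32.8 and 28.2) and GFP replicates 2 and 3 (4.06 and 10.7).

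Taking the start or end regions side by side, the order was much the same in every group. Rtn4r, Rtn4 (outer), Tnr and Ptprs (inner) had mean percentiles of 89.9, 86.2, 83.9 and 84.0 in GFP, and these neighbours lay within a few points of each other. Rtn4 (inner) and Omg followed at 78.1 ± 8.71 and 64.0 ± 4.09 (SD, n = 3). Lingo1 (both starts), Lingo3, Ptprs (outer) and Wfdc1 lay between 43.1 and 49.3 with overlapping values, and Rtn4rl1 was lowest at 20.9 ± 4.25. limma called none of these 12 regions in any comparison, and an unadjusted p under 0.05 was found for 0 in Ezh2 against GFP, for 1 in Ezh2-Y726D against GFP and for 1 in Ezh2 against Ezh2-Y726D. The widest gaps between group means were at the inner Lingo1 start, with 49.3 in GFP and 50.6 in Ezh2 against 32.5 in Ezh2-Y726D.

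**Figure D4:**
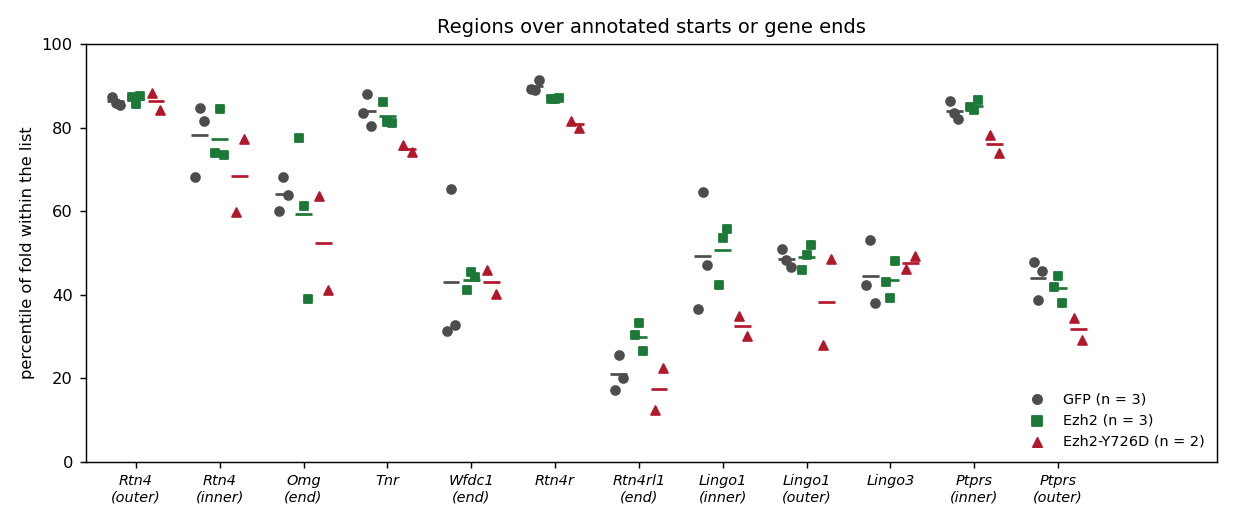
Percentile of fold within the list for the regions over annotated starts, or over a gene end where no start was given, 1 point per list and a bar for each group mean. Rtn4r, Rtn4 (outer), Tnr and Ptprs (inner) stand at 73.9 or above in every list, Rtn4rl1 at 33.1 or below.

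The share of each window covered by peaks did not follow the order of the start or end regions. Lingo3 had the highest share with a middling start. Rtn4rl1, lowest at its end region, had a larger share than Tnr, whose start was high. At Rtn4r the start ranked lowest in Ezh2-Y726D, while the covered share was highest there. At each of the 10 members the values of Ezh2 and GFP overlapped, whereas 17.3% of gene windows were higher in every Ezh2 list and 4.29% lower. Against GFP, Ezh2-Y726D was lower at Mag, as were 19.8% of windows, and higher at Rtn4r, as were 14.7%. Between Ezh2 and Ezh2-Y726D, Rtn4 and Mag were higher in Ezh2, as were 35.5% of windows. Rtn4r was higher in Ezh2-Y726D, as was Rtn4rl1 by less than the rounding (11.3% to 12.2% against 12.2% and 13.0%), and 14.6% of windows were so.

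**Figure D5:**
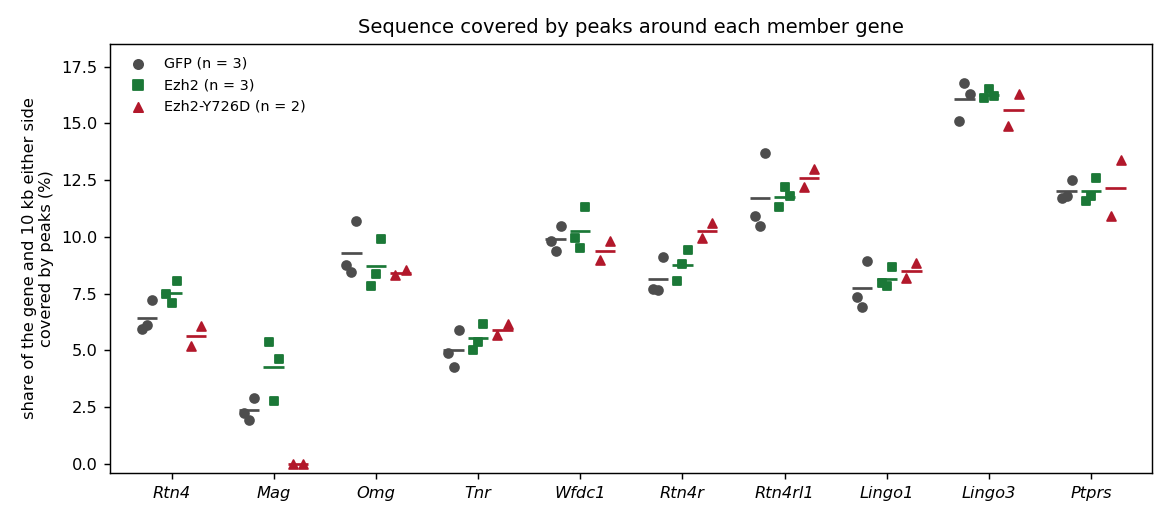
Share of each gene and the 10 kb on either side covered by peaks (percent), 1 point per list and a bar for each group mean. Mag is at 0 in both Ezh2-Y726D lists and at 1.91% to 5.37% in the others, and Lingo3 is highest at 14.9% to 16.8%.

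Most other genes of the pathway were open at a start or end. Of 12 Nogo receptor partners, 11 had a peak at a start or end in every list, Pirb being the one without, and 1 of the 11 tested was called, against 7.0% of all regions higher in the same comparison. The 1 gene was S1pr2, a receptor for sphingosine 1-phosphate that also reads Nogo, which was higher in Ezh2 than in Ezh2-Y726D by 0.98 (limma adjusted p = 0.0152). Of 14 genes for chondroitin sulfate proteoglycans, their matrix partners and receptors, 11 or 12 had a peak, none at Cspg4 or Hapln2 in any list, and limma called none of the 11 tested in any comparison. An unadjusted p under 0.05 was found for 2 with each form of Ezh2 against GFP and for 3 between the forms. Acan, the core protein of aggrecan, had a peak in GFP replicate 3, in Ezh2 replicates 2 and 3 and in both Ezh2-Y726D lists. All 12 genes of RhoA signalling had a peak in every list, among them Rhoa, Rock1 and Rock2, and limma called none of them (unadjusted p under 0.05 for 0 with each form of Ezh2 against GFP and for 1 between the forms).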

How the data were processed

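ATAC-seq peak lists of 8 samples were analysed, grouped by sample title (3 GFP, 3 Ezh2, 2 Ezh2-Y726D). According to the submitters' processing notes, the authors used cutadapt, Bowtie2, SAMtools, Picard, MACS2 and deepTools on GRCm38, and peaks were called in each sample separately; versions were not given in the sources used here. Deposited folds are ratios of summit pileup over local background in one library, and the −log10 p-values, −log10 q-values and the score derived from them come from the authors' peak caller (lowest −log10 q 1.31 to 1.38). Folds depend on depth, which is unknown, so limma compared them only as ranks within a list. The folds and summed folds printed above are unranked and can differ with depth. Positions count from 1.

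Peaks of all lists sharing at least 1 bp were merged, and a region took the highest fold of its peaks in each list. Regions with a peak in all 8 lists were ranked within each list, ranks became normal scores, and groups were compared with limma 3.58.1 (lmFit and eBayes, R 4.3.3, all 8 samples in 1 fit, all 69493 regions, Benjamini-Hochberg adjusted p under 0.05). Windows and merging were run in Python 3.11.15 with pandas 2.3.3, and the scripts were tested on simulated data. Gene positions and promoter sequences came from RefSeq tables of GRCm38.p6, which gave 14 starts for 7 members; for Wfdc1, Omg and Rtn4rl1 the gene ends were used. Exons and introns were not analysed here. Named were all members, their start or end regions, their strongest region and every region called, gained or lost, up to 4 per gene and comparison, and from the pathway lists up to 2 called genes per comparison. The members and lists were chosen with earlier results of these data known. Nothing in the labels states that samples of a group came from separate animals, so p-values measure only the spread between these samples.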

Additional observations from a re-analysis of the deposited data

Results flagged for a closer look

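Among the 14 member regions called by limma between Ezh2 and Ezh2-Y726D, 10 (71.4%) had group means on opposite sides of GFP, against 7617 of all 9699 regions called in that comparison (78.5%), so the members stood near the background share. In these 10 the difference from the same GFP samples had opposite signs for the 2 forms of Ezh2. Choosing regions by a difference between the 2 forms favours this outcome. Some differences from GFP were also small, such as 0.07 for Ezh2-Y726D in Rtn4r at 18135048 to 18135819 (limma adjusted p = 0.898). With Ezh2 on the higher side were 4 Tnr regions, 2 Ptprs regions and the upstream Lingo3 region, whose differences of Ezh2 minus Ezh2-Y726D are given in normal-score units. In Tnr these were 1.95 at 159910902 to 159911486, 1.04 at 159766736 to 159767871, 0.84 at 159772894 to 159774225 and 0.66 at 159556835 to 159557540. At the last pair, percentiles in GFP, Ezh2 and Ezh2-Y726D were 73.7, 60.9 and 78.6, then 72.7, 81.2 and 82.2, then 54.7 and 56.7 at 159772894 (limma adjusted p = 0.024), and 71.4, 73.4 and 73.1, then 81.8, 74.3 and 77.1, then 59.0 and 60.5 at 159556835 (adjusted p = 0.0358). In Ptprs the differences were 1.19 at 56442291 to 56443880 and 0.74 at 56409006 to 56410237, and at Lingo3 1.21 at 80848496 to 80849081.

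With Ezh2 on the lower side were 3 regions, with -0.97 in Tnr at 159583755 to 159584328, -1.01 in Rtn4r at 18135048 to 18135819 and -1.45 in Lingo1 at 56700967 to 56701971. Of the 10, the Lingo1 region was also called against GFP, by Ezh2, and the other 9 were not called against GFP by either form. All 10 set Ezh2 against the Ezh2-Y726D lists, in which 5 or 6 of 20 T cell markers and 5 of 20 microglia and macrophage markers had a peak, and the part of those cells was not tested.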

How the results depend on the processing

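The counts are small and moved readily. Main counts of regions higher and lower were 2 and 2 for Ezh2 against GFP, 2 and 2 with Ezh2-Y726D against GFP, and 9 and 5 in Ezh2 against Ezh2-Y726D. With a −log10 q of at least 5 they were 1 and 1, 1 and 1, and 3 and 2, and with peaks required to span 0.5 or more of the region 0 and 0, 0 and 0, and 1 and 1. Both settings test fewer regions. Ranking by −log10 p gave 1 and 6 in Ezh2-Y726D against GFP, and 9 and 6 in Ezh2 against Ezh2-Y726D. Leaving out 1 sample at a time gave 0 to 2 higher and 0 to 1 lower for Ezh2 against GFP, then 0 to 3 and 1 to 3 for Ezh2-Y726D against GFP, and 1 to 10 and 1 to 6 for Ezh2 against Ezh2-Y726D. Without 1 Ezh2-Y726D sample the other is assumed to vary like the other groups. Gained and lost regions numbered 5 and 2 for Ezh2 against GFP, and 2 and 0 with the stricter q, 1 and 1 with lists cut to equal length, and 1 lost with gene bodies only. In Ezh2-Y726D against GFP 9 were gained, and 5 with the stricter q. For Ezh2 against Ezh2-Y726D 4 were lost, 8 with lists of equal length and 7 with the stricter overlap. Leaving out a sample relaxes the requirement and gave 5 to 10 gained and 2 to 3 lost for Ezh2 against GFP, 9 to 16 and 6 to 10 for Ezh2-Y726D against GFP, and 12 to 17 and 5 to 12 for Ezh2 against Ezh2-Y726D. The mean number of member regions with a peak was higher in Ezh2 than in GFP by 13.3 and than in Ezh2-Y726D by 9.17, and with lists of equal length by 0.667 and 0.333. Leaving out 1 sample gave 7.67 to 21.7 and 5.0 to 12.7, and for Ezh2-Y726D minus GFP, 4.17 with all samples, it gave -1.5 to 12.5, which spans both signs. No call of a named region changed sign. Of 20 named calls, 2 were made in every alternative and 18 were lost in at least 1; unless stated here the cause was not tested.

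Whether the replicate numbers pair the samples could not be decided. Deviations from the group means of same-numbered samples correlated at -0.0151 to 0.0478 (other pairs -0.0482 to 0.0461). By the numbers in the peak names, where Ezh2-Y726D replicates 1 and 2 carry the numbers 2 and 3, they correlated at 0.0018 to 0.0478 (other pairs -0.0482 to 0.0303). Deviations cancel within a group, so the 2 Ezh2-Y726D samples gave mirrored values, which cannot settle the pairing. With the title numbers as a block, each form of Ezh2 had 0 higher regions against GFP, and with the peak-name numbers as a block Ezh2 had 1 and Ezh2-Y726D 0. Lower regions numbered 2 for Ezh2 and 3 for Ezh2-Y726D with the title block, and 2 for each with the peak-name block. They were not all the same regions, for Ezh2 lost its main lower call in Rtn4rl1 with the title block and that in Lingo1 with the peak-name block. Depth is unknown, so absence of a peak is absence at the caller's threshold in that list and not a measure of closed chromatin.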
